A study of Mus musculus with 3 samples.

Results

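The genes whose symbols name a proteasome subunit, or a factor that activates, inhibits or assembles the proteasome, were examined for contacts with Tra2β in the mouse testis. They were all protein-coding genes of the GENCODE vM39 annotation whose symbol begins with Psm, then a letter from a to g and a digit, which gave 51 of 21770 protein-coding genes. Tra2β regulates splicing and prefers RNA rich in purines, in particular GAA repeats. Its RNA contacts had been mapped by iCLIP in 1 group of 3 biological replicates, each from testes of adult wild type mice. No transgene, treatment or knockout was named for any sample. Germ cells were released by mincing, so the labelled cell type was mixed, and the sources used here did not state how old the mice were or how many stood behind each replicate. In iCLIP, ultraviolet light fixes the protein to the RNA it touches, and the end of each cDNA marks the crosslinked nucleotide. A crosslink here means 1 such cDNA after removal of duplicates, and exons and introns are those of the canonical transcript of each gene.

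The proteasome is the large protease that degrades ubiquitin-tagged proteins. Its core particle is a stack of rings of alpha and beta subunits, the inner beta rings holding the protease sites. The regulatory particle that caps it has a base, with a ring of ATPases that unfold substrates, and a lid that removes ubiquitin. Immune cells and the thymus replace some beta subunits with forms of their own. Male germ cells use Psma8 in place of the alpha subunit Psma7, and the activator Psme4 is known for a role in histone removal during sperm formation.

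The members fell into 7 core alpha subunits, the testis alpha subunit Psma8, 7 core beta subunits, 4 immune and thymus beta subunits, 6 ATPases, 3 further base subunits, 8 lid subunits, 5 activators and inhibitors and 7 assembly factors. The other 3 matched by name only. Psmc3ip encodes a cofactor of meiotic recombination, Psme3ip1 a protein that binds the activator Psme3, and Psme2b is a copy of Psme2 that has a single exon.

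Library totals were 348033, 619571 and 488719 crosslinks in replicates 1, 2 and 3, and between 96.5% and 98.2% of crosslinked positions held a single crosslink. Replicate 2 was the deepest library and stood apart: only 26.9% of its crosslinks in exons and introns of other protein-coding genes were exonic, against 43.1% in replicate 1 and 55.6% in replicate 3. All 12 markers of meiotic and haploid germ cells had crosslinks, with summed levels of 3867, 2098 and 4491 crosslinks per 1000000 crosslinks of the library (CPM) in replicates 1, 2 and 3. The 5 markers of spermatogonia held 100.1 to 109 CPM in sum. The 5 Leydig cell markers together held 72.6 to 115 CPM, the 5 Sertoli cell markers 148 to 270 CPM and the 4 leukocyte markers 8.62 to 25.8 CPM, with Lyz2 at 0. Both blood markers, Hba-a1 and Hbb-bs, had no crosslink. The part of any of these differences in the values below was not tested. No input, IgG or RNA-seq library was used here, so that stronger binding, more RNA per cell and more cells of a type cannot be told apart in a crosslink count.

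Proteasome transcripts were contacted in all 3 libraries, mostly through few genes. The members held 317, 159 and 701 exonic crosslinks and 251, 359 and 302 intronic crosslinks in replicates 1, 2 and 3. An exonic crosslink was present for 43 of 51 members, which is 84.3%, against 63.0% of the 21719 other protein-coding genes. The median exon density was 2.31 CPM per kb of exon over the members and 0.41 CPM per kb over the other genes. Of the 1177 exonic crosslinks, Psme4 held 322 or 27.4%, Psme4 with Psmc3 held 38.4%, and the top 8 members held 65.1%. No exonic crosslink was seen in 8 members, which were Psmb3, Psmb5, Psmb8, Psmb9, Psme2, Psme2b, Psmg3 and Psmg4. A count of 0 allows up to 3 crosslinks, or 8.62, 4.84 and 6.14 CPM in replicates 1, 2 and 3.

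**Figure D1:**
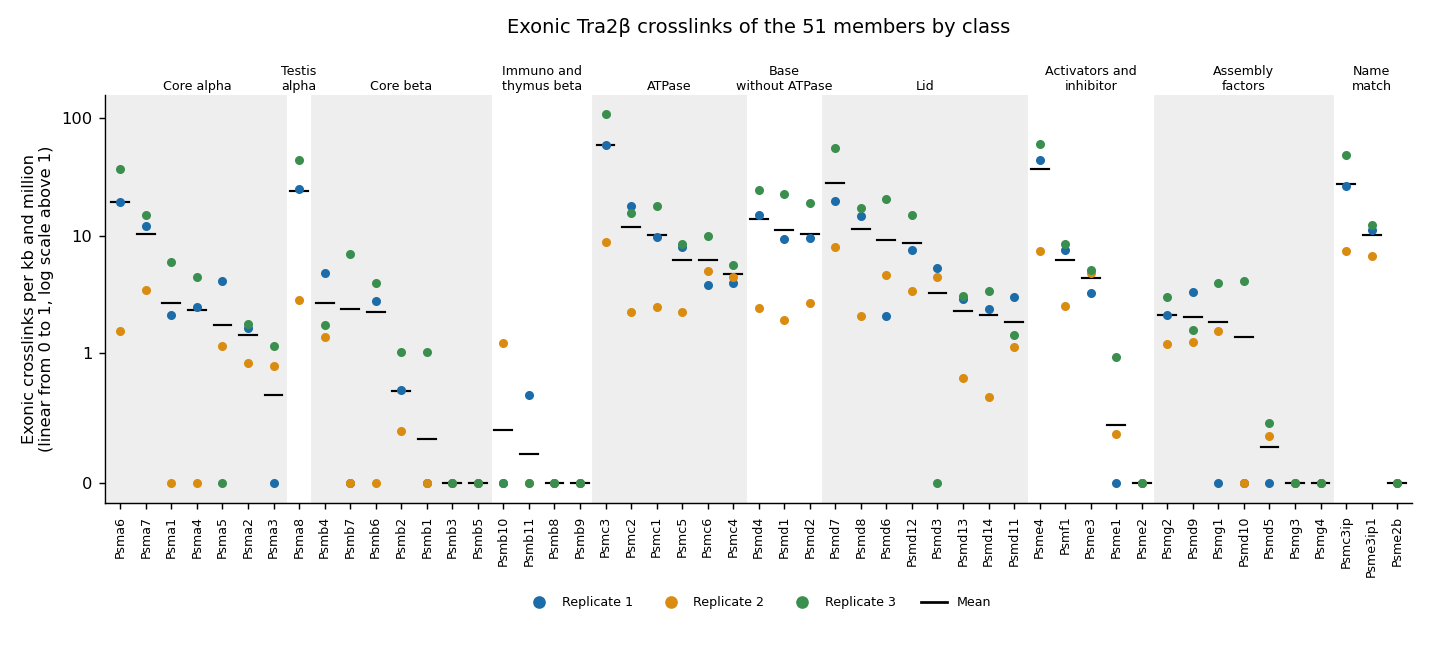
Exonic crosslinks per kb of exon, scaled to library size (CPM per kb), for each of the 51 members, grouped by class. Each point is 1 replicate, bars are means, and the axis is linear from 0 to 1 and logarithmic above. The ATPases, whose means run from 4.72 to 59.1, stand above the core beta subunits, whose means run from 0 to 2.65, and replicate 2 is the lowest of the 3 libraries for each of the 8 members with the highest means.

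Subunits of the regulatory particle carried more exonic crosslinks per length than subunits of the core. All 6 ATPases had exonic crosslinks in each library, with a summed exon density of 16.3, 3.94 and 25.4 CPM per kb in replicates 1, 2 and 3. The 14 core alpha and beta subunits had 2.10, 0.54 and 3.54 CPM per kb in the same libraries. Every library thus placed the ATPases well above the core, although the densities themselves differed several-fold between libraries. The ATPase density was higher than the core density by 2.89 ± 0.06 on the log2 scale (SD, n = 3), in 3 of 3 libraries. The 3 base subunits without ATPase activity were above the core by 2.34 ± 0.25 and the 8 lid subunits by 1.93 ± 0.41 (log2, SD, n = 3). The ATPases were above the lid by 0.96 ± 0.44, again in 3 of 3 libraries.

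These class ratios are descriptions, since an exact two-sided sign-flip test over 3 libraries cannot give a p below 0.25. Their size rested partly on how length was counted. Coding sequence made up 34.3% of the exon length of core subunits and 61.6% of that of ATPases, because the annotated canonical transcripts of several core genes have long untranslated ends. Over coding sequence alone the ATPases were above the core by 2.18 ± 0.04 and the lid by 1.05 ± 0.50 (log2, SD, n = 3). Of the 51 members, 13 share a stretch of at least 100 nt, at 95% identity or more, with another place in the genome. For some, such as Psmd2, nearly the whole mRNA is matched at 1 place, and for others, such as Psmb1, a short stretch is matched at 440 places. Without those 13 the ATPases were above the core by 1.94 ± 0.08 and the lid by 1.08 ± 0.61. Psmc3 alone moved the ATPase ratio to 2.20 ± 0.36 when it was left out, and Psmd7 moved the lid ratio to 1.45 ± 0.55. Each of these ratios was above 0 in 3 of 3 libraries.

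**Figure D2:**
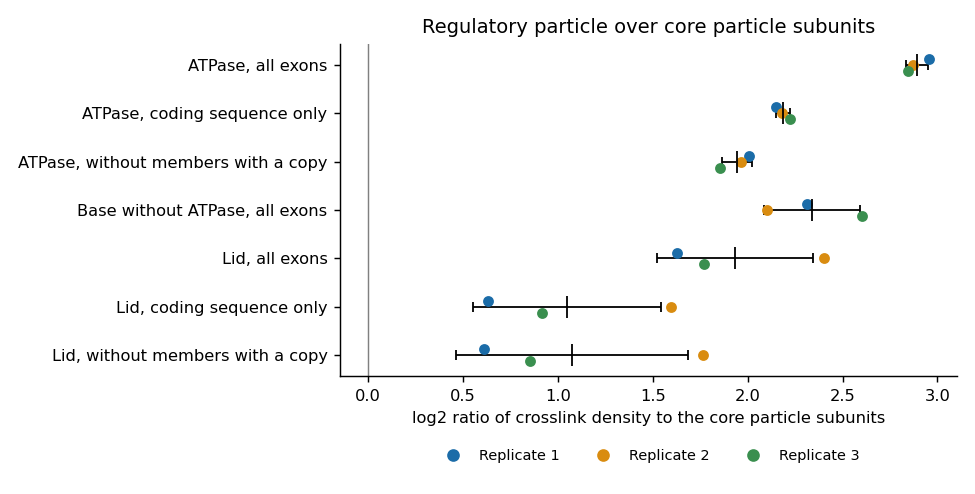
log2 ratio of the crosslink density of ATPase, other base and lid subunits to that of the 14 core subunits, over all exons or coding sequence. Also shown are ratios without members that share a near-identical stretch with another place in the genome. Points are the 3 replicates, ticks are means and error bars are SD. All points lie to the right of 0, and the ATPase ratio falls from 2.89 over all exons to 2.18 over coding sequence.

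Against all other protein-coding genes, the place of the core subunits depended on the measure. By the median over genes, the core was above the other genes, at 1.995 against 0.41 CPM per kb, as were the ATPases at 8.17 and the lid at 5.96. By summed crosslinks over summed length, to which heavily crosslinked genes add most, the 14 core subunits together had a lower exon density than the other genes in 3 of 3 libraries, with a log2 ratio of -1.01 ± 0.61 (SD, n = 3). By the same sums the ATPases were above the other genes by 1.89 ± 0.62 and the lid by 0.93 ± 0.28, both in 3 of 3 libraries. The 51 members together were above by 0.93 ± 0.49, and by 0.58 ± 0.39 without Psme4.

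Psmc3, an ATPase of the base on chromosome 2 (GRCm39, 90884354 to 90896714, plus strand), had the highest exon density of the members. Its exons held 34, 9 and 87 crosslinks in replicates 1, 2 and 3, and its introns 0, 2 and 2. Exon crosslinks outnumbered intron crosslinks in every library, and 97.0% of its crosslinks were exonic. Its mean density of 59.1 ± 49.97 CPM per kb (SD, n = 3) ranked 168 of all 21770 protein-coding genes. Of the other ATPases, Psmc2 had 18, 4 and 22 exonic crosslinks and Psmc1 had 9, 4 and 23. The lowest ATPase, Psmc4, had a density of 4.72 ± 0.87 CPM per kb, which is above the mean of every core beta subunit, although it rests on 2, 4 and 4 crosslinks. Psmc5 had 4, 2 and 6 exonic crosslinks and Psmc6 had 3, 7 and 11.

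Psme4, the activator linked to histone removal, lies on chromosome 11 (30721725 to 30830376, plus strand) and has 47 exons. Its exons held 100, 30 and 192 crosslinks and its introns 70, 79 and 69 in replicates 1, 2 and 3. The exonic count was thus lowest in replicate 2, although that library was the deepest. Crosslinks were spread along the mRNA, with at least 1 in 45 of the 47 exons and no more than 26 in any of them. Its density of 37.4 ± 27.2 CPM per kb ranked 325 of all protein-coding genes. The other activators were far lower: Psme3 had 5, 13 and 11 exonic crosslinks, Psme1 had a density of 0.45 ± 0.49 CPM per kb and Psme2 had none. Psmf1, which encodes a proteasome inhibitor, had 10, 6 and 16 exonic and 11, 14 and 11 intronic crosslinks.

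Psmd7, a lid subunit on chromosome 8 (108307010 to 108315121, minus strand), had 11, 8 and 44 exonic and 2, 1 and 5 intronic crosslinks. Its density of 27.9 ± 25.1 CPM per kb was the highest of the lid. Psmd8 had 8, 2 and 13 exonic crosslinks, Psmd6 had 1, 4 and 14 and Psmd12 had 5, 4 and 14. Psmd14, the lid enzyme that removes ubiquitin chains, had 2, 1 and 4 exonic and 20, 26 and 24 intronic crosslinks. Its introns span 87142 nt, so the intronic crosslinks were 0.23, 0.30 and 0.28 per kb in replicates 1, 2 and 3. The same values for Psmd7 were 0.31, 0.15 and 0.77. The other lid subunits, Psmd3, Psmd11 and Psmd13, had densities of 3.26, 1.85 and 2.26 CPM per kb. Of the base subunits without ATPase activity, the ubiquitin receptor Psmd4 had 7, 2 and 16 exonic crosslinks, the scaffold subunit Psmd1 had 11, 4 and 37 and its partner Psmd2 had 10, 5 and 28. The Psmd2 reads carry a limit of their own, since 96.4% of its mRNA has a near-identical copy elsewhere in the genome. Crosslinks in that copy numbered 0, 0 and 1 in replicates 1, 2 and 3.

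Psma8, the testis alpha subunit, lies on chromosome 18 (14839184 to 14904059, plus strand). Its exons held 15, 3 and 37 crosslinks, and its introns 35, 81 and 35. Introns thus held most of its crosslinks in replicates 1 and 2, and over the 3 libraries 26.7% were exonic, against 56.3% for the members together. Its introns span 54456 nt and its exons 1716 nt, and these shares are not corrected for length. Psma7, the alpha subunit that Psma8 replaces, had 4, 2 and 7 exonic and 1, 1 and 2 intronic crosslinks. Per exon length, Psma8 was above Psma7 by 1.04 and 1.54 in replicates 1 and 3 on the log2 scale and was at -0.28 in replicate 2, so that the mean of 0.77 ± 0.94 (SD, n = 3) was smaller than the spread between libraries. The highest alpha subunit that is not restricted to testis was Psma6, with 7, 1 and 19 exonic crosslinks and a density of 19.4 ± 17.9 CPM per kb, which overlapped that of Psma8 at 24.0 ± 20.7.

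The remaining alpha subunits, Psma1 to Psma5, had densities from 0.68 to 2.69 CPM per kb, and none held more than 5 exonic crosslinks in a library. The core beta subunits ranked from 24 to 44 of the 51 members by exon density. The 7 core beta subunits held 18 exonic and 83 intronic crosslinks over the 3 libraries, and their highest member, Psmb4, had 2.65 ± 1.92 CPM per kb. The subunits that replace them in immune cells and the thymus were at or near 0. Psmb8 had no crosslink in exons or introns, Psmb9 had 1 intronic crosslink in replicate 1, Psmb10 had 1 exonic crosslink in replicate 2 and the thymus form Psmb11 had 1 exonic crosslink in replicate 1. Psmb3 and Psmb5 also had no exonic crosslink, but 96.5% and 74.8% of their mRNAs have near-identical matches elsewhere in the genome, and the part of those matches in these counts was not tested. The 7 assembly factors had densities from 0 to 2.10 CPM per kb, with the highest value in Psmg2.

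Among the 3 name matches, Psmc3ip stood near the top of all members. It lies on chromosome 11 (100981704 to 100986276, minus strand) and held 12, 6 and 31 exonic and 2, 2 and 1 intronic crosslinks. Its density of 27.5 ± 20.6 CPM per kb was the fourth highest of the 51 members. Over coding sequence alone it ranked 2 of the 51, behind Psmc3. Psme3ip1 had 14, 15 and 22 exonic and 21, 18 and 29 intronic crosslinks, and Psme2b had none.

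Members were next compared with all genes by the balance of exon and intron within each library. The share of exonic crosslinks over the members was 55.8% in replicate 1, 30.7% in replicate 2 and 69.9% in replicate 3. The 95% exact Clopper-Pearson intervals of these shares were 51.6 to 59.9%, 26.7 to 34.9% and 66.9 to 72.7%. The same share over the other protein-coding genes was 43.1%, 26.9% and 55.6%, so the members were higher in 3 of 3 libraries, and in replicate 2 the interval began just below the value of the other genes. By class, the ATPases had 84.3%, 65.2% and 86.0% of their crosslinks in exons, and the core subunits 35.5%, 13.9% and 53.1%. The intervals cover counting error only. These shares are not corrected for length, so a gene with short introns has a higher share at equal density. Per length, the 26 members tested below had a median log2 difference of -0.46 from all genes together. The median gene lay at -1.15 on that scale.

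For each gene with at least 20 crosslinks, exon and intron counts were then set against each other per length with edgeR's quasi-likelihood test, the library as a block and 0 set to the ratio of all genes tested together. Of the 51 members, 26 could be tested. Psmc3 was higher than all genes, with a log2 difference of 2.12 ± 0.74 (SE) and an edgeR adjusted p of 0.0305. It was the only member called higher, where 3.33% of the 6907 genes tested were called higher. The Psmc3 call was lost without replicate 1 (adjusted p = 0.313) and without replicate 3 (adjusted p = 0.18), and the adjusted p without replicate 2 was 0.000539. It was also lost with DESeq2 (adjusted p = 0.109) and over coding sequence alone, where the log2 difference was 1.63 ± 0.79 (adjusted p = 0.087).

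Lower ratios were called for 7 of the 26 members tested, against 33.1% of all genes tested, so the share of members is not a result about them. The core subunit Psmb1 had the lowest value, -4.96 ± 0.92 (edgeR adjusted p = 0.000616), with 0, 0 and 3 exonic and 5, 8 and 10 intronic crosslinks. The core subunits Psmb2 and Psma3 had log2 differences of -3.30 and -3.11, the lid subunits Psmd13 and Psmd14 of -2.22 and -1.97, Psmf1 of -1.42 and Psme3ip1 of -1.32. Coding sequence makes up only 12% of the exon length of Psmb1 and 15% of that of Psmb2. With coding sequence in place of exons, Psmb1 alone remained lower (-2.79 ± 1.11, adjusted p = 0.0353) and no member was higher, while 34.6% and 2.54% of the 6388 genes tested that way were called lower and higher. Leaving out replicate 1 left 1 lower call and leaving out replicate 3 left 2, and no member was called higher in either.

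**Figure D3:**
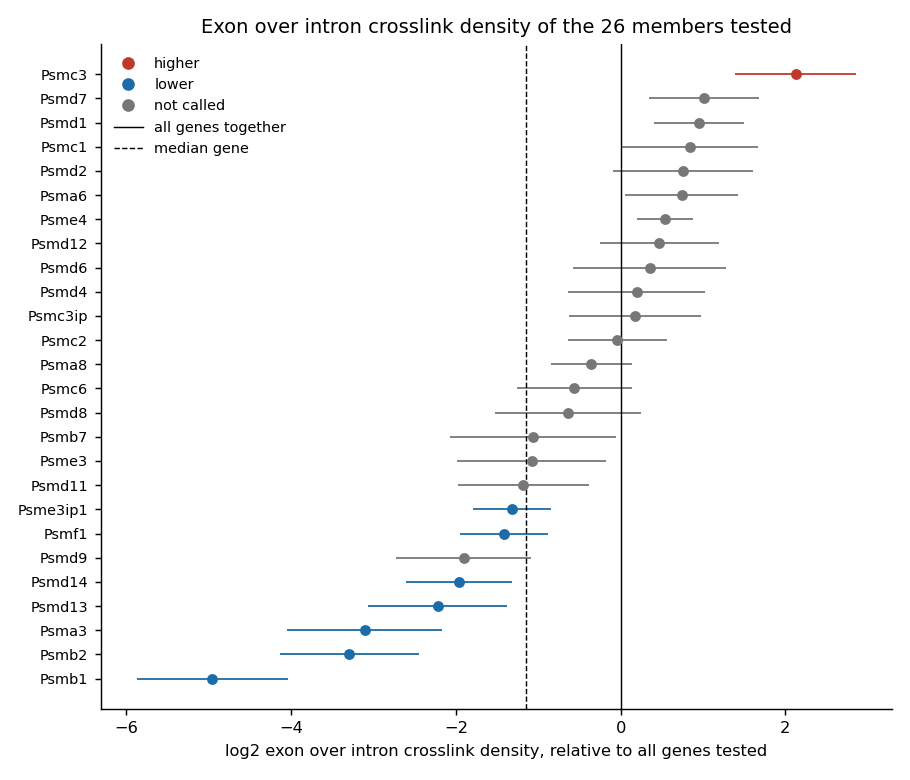
Exon over intron crosslink density of the 26 members tested, as log2 difference from all genes tested, with SE bars from edgeR. Red marks a higher and blue a lower call at an adjusted p under 0.05, the solid line at 0 is the ratio of all genes together and the dashed line at -1.15 is the median gene. Psmc3 at 2.12 is the only red point, and Psmb1 at -4.96 is the lowest of the blue points.

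The choice of the reference mattered. The ratio of all genes together is set by heavily crosslinked genes, and the median gene lay at -1.15 on that scale, while the members tested had a median of -0.46 and 17 of the 26 lay above the median gene. With the median gene as 0, the calls higher were Psmc3, Psmd1, Psmd7 and Psme4, where 11.2% of all genes were called, and Psmb1 was the only member called lower, where 5.89% were. Psme4 then had a log2 difference of 1.69 ± 0.35 (edgeR adjusted p = 0.00188), against 0.54 ± 0.34 (adjusted p = 0.216) with all genes together as reference. An exact binomial test on length alone called 9 of the 26 members richer in exon crosslinks in each of the 3 libraries, against 36.5% of all genes tested. Psma8 was at -0.36 ± 0.49 (adjusted p = 0.583) and Psmc3ip at 0.17 ± 0.80 (adjusted p = 0.878) with all genes together as reference.

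Genes of the pathway that lack a Psm symbol were read in the same test. Of 22 genes found, such as the ubiquitin receptor Adrm1, the deubiquitinases Usp14 and Uchl5 and the shuttle factor Rad23b, each had at least 1 exonic crosslink. None of the 14 tested was higher and 3 were lower by edgeR's test, where 3.33% and 33.1% of all genes were: Akirin2, a factor for nuclear import of proteasomes, at -3.52, the ATPase Vcp at -3.32 and the protease Ddi2 at -2.95 on the log2 scale. The median of the 14 was -0.59, with the median gene at -1.15. By exon density the highest were Rad23b, at 19.8 ± 12.8 CPM per kb, and Uchl5, at 18.2 ± 12.8 CPM per kb (SD, n = 3).

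Within exons, the members' crosslinks lay mostly in coding sequence. Coding sequence took 82.6%, 84.3% and 82.3% of the exonic crosslinks of the members in replicates 1, 2 and 3 and makes up 47.3% of their exon length. For the other protein-coding genes the same shares were 76.0%, 81.5% and 77.7%, over 47.1% of the length. The ATPases had 88.6%, 100% and 92.2% of their exonic crosslinks in coding sequence. Psma8 did not share this excess. Of its 15, 3 and 37 exonic crosslinks, 7, 2 and 21 lay in the 3' UTR and 53.3%, 33.3% and 43.2% in coding sequence. Coding sequence makes up 43.7% of its exon length. Its density was 25.5 CPM per kb over coding sequence and 24.0 over all exons, so neither part was preferred by length. Psma8 was not alone in this, since Psmd4 had 12.1 CPM per kb over coding sequence and 14.0 over all exons.

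Within the transcripts, crosslinks of the members were rarely stacked at 1 nucleotide. Of 1108 exonic positions, 33 were hit in more than 1 library and none was hit in all 3. The highest count at any position was 5, in exon 35 of Psme4. The same counts were not made for the other protein-coding genes, so they are not a result about the members. Of the 487 exons of the members, 291 had a crosslink and 29 had at least 10. The exons with most crosslinks were the last exon of Psmd7 (11, 5 and 32 in replicates 1, 2 and 3, 939 nt) and the last exon of Psma8 (10, 2 and 30, 952 nt). They were followed by the last exon of Psme4, exon 47, with 9, 1 and 16 crosslinks, and by Psme4 exon 35 with 6, 1 and 14 in only 126 nt. Psmc3 exon 3 held 5, 2 and 14 crosslinks and Psmc3 exon 2 held 9, 0 and 12. Psme4 exon 10 held 6, 0 and 12, and Psmc3 exon 12 held 3, 2 and 12, the same sum as the last exon of Psmf1 with 6, 2 and 9.

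**Figure D4:**
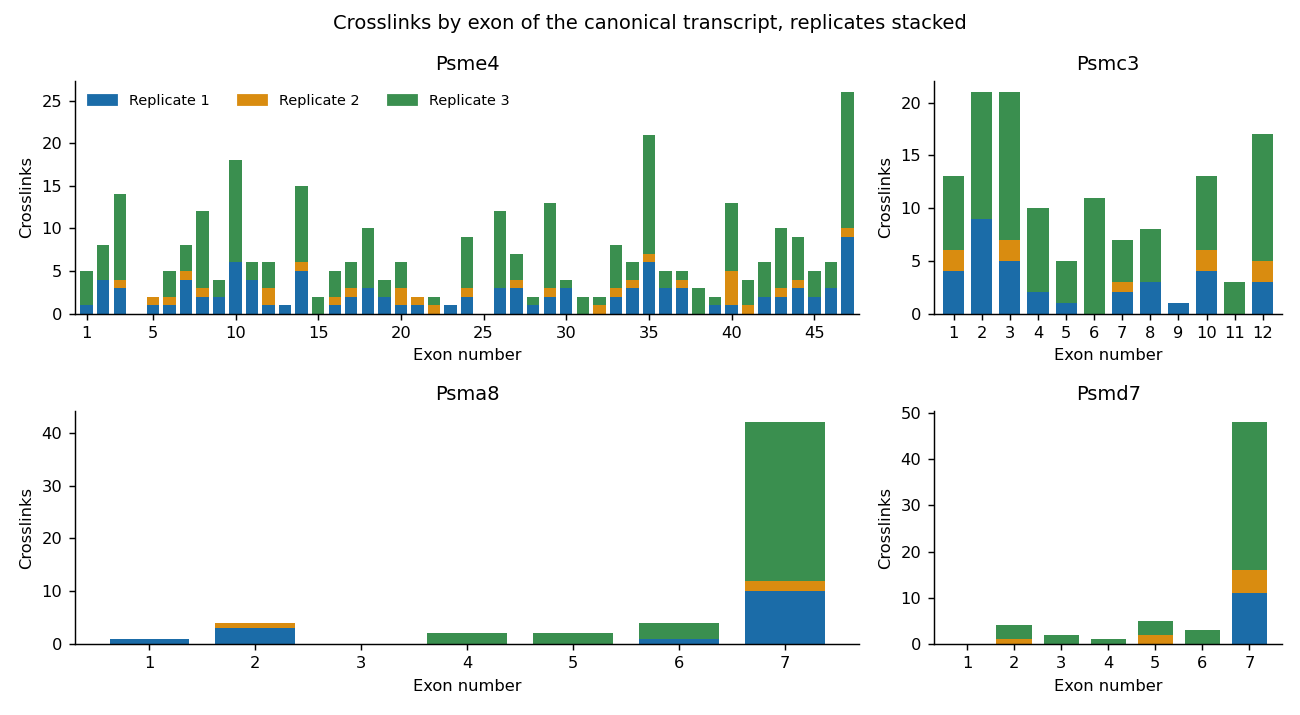
Crosslinks in each exon of the canonical transcripts of Psme4, Psmc3, Psma8 and Psmd7, numbered from the 5′ end, with the 3 replicates stacked. Psme4 crosslinks are spread over 45 of 47 exons with the tallest bars at exons 47 and 35, whereas the last exon, exon 7, holds 42 of the crosslinks of Psma8 and 48 of those of Psmd7.

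The densest stretches of 29 nt in coding exons are shown for the 8 exons with most crosslinks that hold such a stretch with a crosslink, Psma8 left out, because they differ in whether they hold the GAA triplets that Tra2β is known to bind. They are written 5′ to 3′ on the strand of the gene in GRCm39, with each GAA in capitals.
Psmd7 exon 7, chr8:108307557-108307585, minus strand: gaGAAaagacgacaaagaGAAggaGAAga
Psme4 exon 35, chr11:30797467-30797495, plus strand: ttaGAAgacaGAAaagGAAgagataagtt
Psmc3ip exon 8, chr11:100983254-100983282, minus strand: gagGAAgttgGAAtagagacagatGAAga
Psmc3 exon 3, chr2:90885324-90885352, plus strand: atcatGAAgagtGAAgtattgcgagtcac
Psmc3 exon 2, chr2:90884972-90885000, plus strand: agcgcacacggctgttagacagcgagatc
Psme4 exon 14, chr11:30765677-30765705, plus strand: tcctcacacaatgttccaaagacatattt
Psme4 exon 10, chr11:30760883-30760911, plus strand: aaagccataagcttactgatGAAgatgtt
Psmc3 exon 12, chr2:90889639-90889667, plus strand: atgaggactacatggagggcatcctggag

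The Psmd7 stretch held 3, 1 and 4 crosslinks in replicates 1, 2 and 3 and has 3 GAA triplets in a run that is 93.1% purine. The Psme4 exon 35 stretch held 5, 0 and 10 crosslinks, with 3 triplets, and the Psmc3ip stretch held 1, 0 and 2, with 3 triplets. The Psmc3 exon 3 stretch held 3, 0 and 6 crosslinks with 2 triplets, and the Psme4 exon 10 stretch 2, 0 and 4 with 1. No GAA triplet lies in the Psmc3 exon 2 stretch, which held 6, 0 and 5 crosslinks, in the Psme4 exon 14 stretch, which held 1, 0 and 6, or in the Psmc3 exon 12 stretch, which held 0, 1 and 4. A triplet was thus present in 5 of the 8 stretches. How many coding stretches of this length hold a triplet over all genes was not counted, so this is not a result about the members.

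Each exon was tested against the other exons of its transcript by length, with an exact binomial test in each library and a call only where all 3 libraries passed. Of 225 exons of 17 members tested, 0 were called by this rule, where 0.215% and 0.346% of 58715 exons were called higher and lower. The rule had little power here: with simulated 4-fold changes it recovered 0 of 200 exons. With the libraries summed, 14 member exons were called higher and 9 lower, against 6.26% and 3.37% of all exons tested. Both counts are close to those shares of the 225 exons, so they are not a result about the members. Those higher included Psme4 exon 35 at a log2 difference of 1.85, Psmc3 exons 2 and 3 at 1.86 and 1.23, Psma8 exon 7 at 1.34 and Psmd7 exon 7 at 1.15. A call from summed libraries does not measure the spread between libraries, and Psmc3 exon 2 had no crosslink in replicate 2. Psme4 exon 35 and Psma8 exon 7 passed on their own in replicate 3 only. Psmd7 exon 7 and Psmc3 exon 3 passed in no single library, and Psmd7 exon 7 was at 0.16 in replicate 2.

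Introns of the members were tested likewise. Of 117 introns of 9 members, 0 were called in all 3 libraries, where 0.368% and 0.163% of 75071 introns were called higher and lower. With the libraries summed, 6 were higher and 2 lower, against 4.5% and 2.87% of all introns tested. These counts are close to those shares and are not a result about the members. The introns with most crosslinks were intron 1 of Psma8 (9, 40 and 15 in replicates 1, 2 and 3, 14834 nt), intron 1 of Psme3ip1 (18, 14 and 23), intron 4 of Psma8 (15, 24 and 13), intron 3 of Psme4 (13, 11 and 16) and intron 43 of Psme4 (9, 17 and 4). The densest short window in any of these 5 introns held at most 6 crosslinks over the 3 libraries. Those 6, of 52, lay in intron 4 of Psma8, which spans 26180 nt, between positions 14865697 and 14865797. In intron 3 of Psme4 a window of the same length held 5 of 40. The densest windows of the other introns named held 4 or fewer. Whether such windows hold more crosslinks than intron length alone would give was not tested. Intron 1 of Psme3ip1, a name match, was above the other introns of its gene by 2.13 on the log2 scale with the libraries summed. The log2 differences were 2.50, 1.78 and 1.95 in replicates 1, 2 and 3. It passed in no single library, with exact binomial adjusted p of 0.052, 0.279 and 0.0585.

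Purine motifs were more frequent near exonic crosslinks of the members than over their exons as a whole. The pentamer GAAGA, searched on the strand of the gene, lay within 30 nt of 30.3%, 32.1% and 28.8% of the exonic crosslinks of members in replicates 1, 2 and 3. Of all exonic positions of the same transcripts, 13.8% had it that near, which gives a ratio of 2.21 ± 0.12 (SD, n = 3). For other protein-coding genes the ratio was 2.60 ± 0.37. Weighting the positions of each gene by its crosslinks gave 1.82 ± 0.29 for the members and 1.87 ± 0.40 for the others. The overlapping pentamers AGAAG and AAGAA gave ratios of 2.22 ± 0.31 and 2.24 ± 0.46 with equal weights. By transcript, the share of exonic positions near GAAGA had a median of 14.6% over members and 11.6% over other genes, and it was highest in Psmc3ip, at 31.3%. Whether this share follows the crosslinks was not tested. Among the densest members by exon, Psmc3 had 27.1%, Psma8 26.9%, Psmd4 22.9%, Psma6 21.3%, Psmd7 18.6% and Psme4 16.1%, all above the member median. Psmc2, also among the densest, was below it at 9.7%. Psma5 and Psmd10, with 3 exonic crosslinks each, had 28.5% and 27.2%. For Psma5, 70.3% of the mRNA has near-identical matches elsewhere in the genome.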

How the data were processed

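iCLIP of Tra2β was analysed in 3 biological replicates of adult wild type mouse testis. The authors processed reads with the iMAPS pipeline, and the submitters' processing notes name Trim Galore 0.6.7, Bowtie 1.3.1, STAR 2.7.9a, UMI-tools 1.1.2 and build mm39. The deposited values are counts of unique cDNAs per crosslinked nucleotide and strand, neither normalised nor pooled. How reads with several possible origins were treated was not given in the sources used here. Near-identical matches to member mRNAs were found with blastn 2.17.0.

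Counts in column 5 were summed by strand over exons, introns and coding sequence of the canonical transcript of each protein-coding gene. A nucleotide shared by genes was counted for each of them. Density is crosslinks per kb in CPM, that is scaled to library totals of 348033, 619571 and 488719. Exon over intron was tested with edgeR 4.0.16 (R 4.3.3, adjusted p under 0.05, genes with at least 20 crosslinks) and with DESeq2 1.42.0 as an alternative. Adjustment was by Benjamini-Hochberg over all genes, exons or introns tested. On simulated data with 4-fold changes, edgeR recovered 65 of 200 changed genes with 3 false calls among 6907. The exon rule recovered 0 of 200, and 38 of 200 with libraries summed. Per-library binomial p-values and intervals cover counting error only, and the 3 replicates give no more than the spread between these samples.

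Members, gene lists and tests were chosen with earlier results of these data known. Text names the 8 densest members, those called by edgeR, Psma7, Psma8, Psmb8 to Psmb11, Psme4 and Psmc3ip, the 8 exons and 5 introns with most crosslinks, and the dense stretches shown. Other members are named as examples of their class, chosen after their values were seen.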

Additional observations from a re-analysis of the deposited data

How the results depend on the processing

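Of the 26 members tested for exon over intron, 8 were called, and the count was 5 with the median gene as reference, 3 with DESeq2, 4 of 45 tested with no filter, 4 of 10 tested with at least 50 crosslinks, 1 with coding sequence and 1 to 11 without a replicate. Higher calls, 1 with the settings reported, numbered 4, 0, 0 and 9 with the median gene, DESeq2, coding sequence and the exact binomial test, and 0 to 3 without a replicate. Lower calls, 7 as reported, numbered 1, 3, 3, 3, 1 and 0 with the median gene, DESeq2, no filter, at least 50 crosslinks, coding sequence and the exact binomial test, and 1 to 8 without a replicate. Over all genes the share called lower moved too, from 33.1% to 21.5% with DESeq2, 8.51% with no filter, 40.6% with at least 50 crosslinks and 10.7% to 47.2% without a replicate. Direction turned for Psma8 with the median gene (0.79), with no filter (0.071) and without a replicate (-0.98 to 0.33), for Psmc3ip with exons of any transcript (-0.50) and without a replicate (-0.31 to 0.45), and for Psme4 with coding sequence (-0.051). With exons of any transcript, Psma8 was called lower (-1.97). The cause was not tested.

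Exon calls of members numbered 23 with libraries summed and 0 to 2 without a replicate, and intron calls 8 with libraries summed. The ATPase to core log2 ratio was 2.03 from medians over genes, 2.18 over coding sequence, 2.20 without Psmc3 and 1.94 without members with a near-identical match. The lid ratio was 1.05 over coding sequence, 1.45 without Psmd7 and 1.08 without members with a near-identical match. The GAAGA ratio was 2.33 with 15 nt, 1.78 over coding positions, 1.82 weighted by crosslinks and 2.38 without Psme4. The exon share of members kept within the spread between libraries in each alternative run, with a mean of 43.3% to 62.9% when a replicate was left out. Low counts left 25 of 51 members untested.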

Other observations

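Exons that are annotated only in other transcripts of the members held few crosslinks. Outside the canonical exons, 373 such stretches of 50 members cover 148795 nt, and 67 of them held a crosslink. They held 40, 53 and 54 crosslinks in replicates 1, 2 and 3. The largest count lay beyond the end of the canonical Psma8 transcript, in a stretch of 8704 nt that belongs to a transcript annotated as a target of nonsense-mediated decay, with 10, 10 and 6 crosslinks. The next was a retained intron of Psmf1, with 3 crosslinks in each library over 2045 nt.

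Near-identical matches to stretches of member mRNAs elsewhere in the genome held 3, 11 and 7 crosslinks in replicates 1, 2 and 3. Not all of these matches are copies of an mRNA: stretches of Psmb1, Psmb2, Psmb5 and Psmb11 are matched at 440, 256, 637 and 1079 places. The matched stretches of the members themselves held 14, 10 and 38, most of them in Psmd2, with 10, 5 and 28.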
